A study of Homo sapiens with 4 samples.

Results

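The 6 actin genes (ACTC1, ACTA1, ACTA2, ACTG2, ACTB and ACTG1) and the 4 conventional tropomyosin genes (TPM1, TPM2, TPM3 and TPM4) were examined across the 4 libraries of the series, and each of these 10 genes was found by its Ensembl identifier among the 60234 genes of the table. The study differentiated a human embryonic stem cell (hESC) line that carries GFP in the NKX2.5 locus, a cardiac transcription factor gene, towards the heart and sorted the cells by GFP. The RA culture was given 1 µM retinoic acid from day 4 to day 7, and the control culture (CTR) was given DMSO over the same days. By the sample records the cells of both cultures were sorted on day 31, long after the treatment had ended. Each culture gave a GFP-positive and a GFP-negative library, 4 in all, from 1 cell line and with 1 library per condition. No difference therefore has a replicate check, no test between conditions was made, and all intervals cover counting error only. The GFP-positive cells are those in which the NKX2.5 locus was active, whereas the GFP-negative cells are whatever else the culture held, so that fewer cells of a type and less RNA per cell cannot be told apart in either.

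Actin monomers assemble into filaments, and tropomyosin dimers lie end to end along them. In striated muscle the thin filament is built from sarcomeric actin, tropomyosin and troponin, and tropomyosin blocks or exposes the sites where myosin binds. ACTC1 encodes cardiac actin and ACTA1 skeletal muscle actin, and the heart expresses both, in proportions that change with development and load. ACTA2 and ACTG2 encode the smooth muscle actins of vessels and of gut, ACTA2 being used also by early cardiomyocytes and by myofibroblasts, while ACTB and ACTG1 encode the cytoplasmic actins of all cells. The tropomyosin genes each yield several proteins by alternative promoters and splicing, with the striated muscle forms coming mainly from TPM1, TPM2 and TPM3 and TPM4 yielding a cytoskeletal form in human cells. Counts per gene add these forms together.

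The libraries held 28125727 reads for RA GFP-positive, 26222787 for RA GFP-negative, 28643091 for CTR GFP-positive and 4371101 for CTR GFP-negative cells, so that the last was the shallowest. Levels are given as counts per 1000000 reads (CPM) of a library size scaled with TMM factors, with exact Poisson intervals at the 95% level. NKX2-5 stood at 463 and 593 CPM in the RA and CTR GFP-positive libraries and at 9.74 and 14.5 CPM in the GFP-negative ones, so the sort matched its labels. All 10 of 10 cardiomyocyte markers (TNNT2, MYH6, TNNI1, TNNI3, TNNC1, RYR2, MYL7, TTN, PLN and ACTN2) were at least 2-fold higher in the GFP-positive library of each culture. Of all genes, 12.7% were so in the control and 10.5% in the RA culture. The summed level of the markers was 16853 and 18816 CPM in the RA and CTR GFP-positive libraries against 522 and 985 CPM in the GFP-negative ones.

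The promoters of the actins are shown because several carry the CArG box, the site of serum response factor (SRF), which is itself controlled through the pool of free actin. The box was searched as 2 letters C, 6 letters that are each A or T and 2 letters G, on both strands, from 250 bases before to 50 bases after each start in RefSeq (GRCh38.p14), and the TATA box as TATAAA, also on both strands. Of the 10 genes, 9 were matched to a RefSeq promoter, with 16 starts in all, and ACTB was not. The 150 bases before the first start of 4 actin genes follow 5′ to 3′ on the strand of the gene, at chr15:34795550-34795699 for ACTC1, chr1:229434095-229434244 for ACTA1, chr2:73892858-73893007 for ACTG2 and chr17:81512800-81512949 for ACTG1, with CArG and TATA boxes in capitals.
ACTC1: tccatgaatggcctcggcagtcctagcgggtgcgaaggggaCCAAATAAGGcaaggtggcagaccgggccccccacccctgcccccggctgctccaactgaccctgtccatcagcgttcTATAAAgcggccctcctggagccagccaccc
ACTA1: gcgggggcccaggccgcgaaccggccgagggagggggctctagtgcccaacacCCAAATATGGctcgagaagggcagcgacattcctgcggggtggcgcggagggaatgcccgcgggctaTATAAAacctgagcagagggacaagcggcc
ACTG2: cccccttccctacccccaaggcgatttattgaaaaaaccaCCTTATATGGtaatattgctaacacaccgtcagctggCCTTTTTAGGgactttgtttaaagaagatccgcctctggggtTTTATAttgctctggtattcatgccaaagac
ACTG1: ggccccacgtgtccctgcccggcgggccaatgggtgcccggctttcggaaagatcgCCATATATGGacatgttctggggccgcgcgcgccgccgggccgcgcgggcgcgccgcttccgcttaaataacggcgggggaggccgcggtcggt

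The CArG box began 109 bases before the start in ACTC1, 97 in ACTA1, 110 and 73 in ACTG2 and 94 in ACTG1. A further box began 173 bases before the first of the TPM4 starts, outside the length shown for the actins. Thus 5 of the 16 windows held a CArG box, against 1.29% of all 35116 RefSeq promoters of the same length, and the 2 boxes of ACTG2 compare with 0.0313% of promoters that held at least 2. TATAAA, found in 11.5% of all promoters, began 31 bases before the start in ACTC1 and 30 in ACTA1, and its reverse complement 31 before that of ACTG2, written there as TTTATA. The 2 windows of ACTA2 held neither set of letters in full. The search took exact matches only, and the second window held the near matches ccctatatgg and ccttgtttgg for CArG and tatataa for TATA. Near matches were not counted in the other promoters. These matches describe the sequence, and the binding of SRF was not measured.

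The 4 comparisons were RA against CTR in each fraction and GFP-positive against GFP-negative in each culture. They share libraries pairwise, and each is described by its own values. A gene was counted as higher or lower where the ratio of CPM was at least 2 or at most 0.5 and the gene had at least 10 CPM in either library. With RA, 4 of the 10 genes (ACTA1, ACTA2, ACTG2 and TPM4) were higher and 0 were lower in the GFP-positive cells, where 4.45% of 11186 genes were higher and 1.86% lower. In the GFP-negative cells 1 gene (ACTG2) was higher and 0 were lower, with 5.42% and 3.58% of 11606 genes as background. Between the fractions of the control culture, 1 gene (ACTC1) was higher in the GFP-positive cells and 3 (ACTG1, TPM3 and TPM4) were lower, of the 9 that reached 10 CPM, whereas 12.7% of 11806 genes were higher and 13.8% lower. In the RA culture 2 (ACTC1 and ACTA1) were higher and 4 (ACTG2, ACTG1, TPM3 and TPM4) lower, beside 10.5% and 13.0% of 11850 genes. On the scale of log2(CPM + 1), the median difference of the members was 0.67 with RA in the GFP-positive and 0.37 in the GFP-negative cells, against 0.02 and 0.08 over all genes, and the median between fractions was -0.84 in the control and -0.33 in the RA culture, against 0.08 and 0.02.

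**Figure D1:**
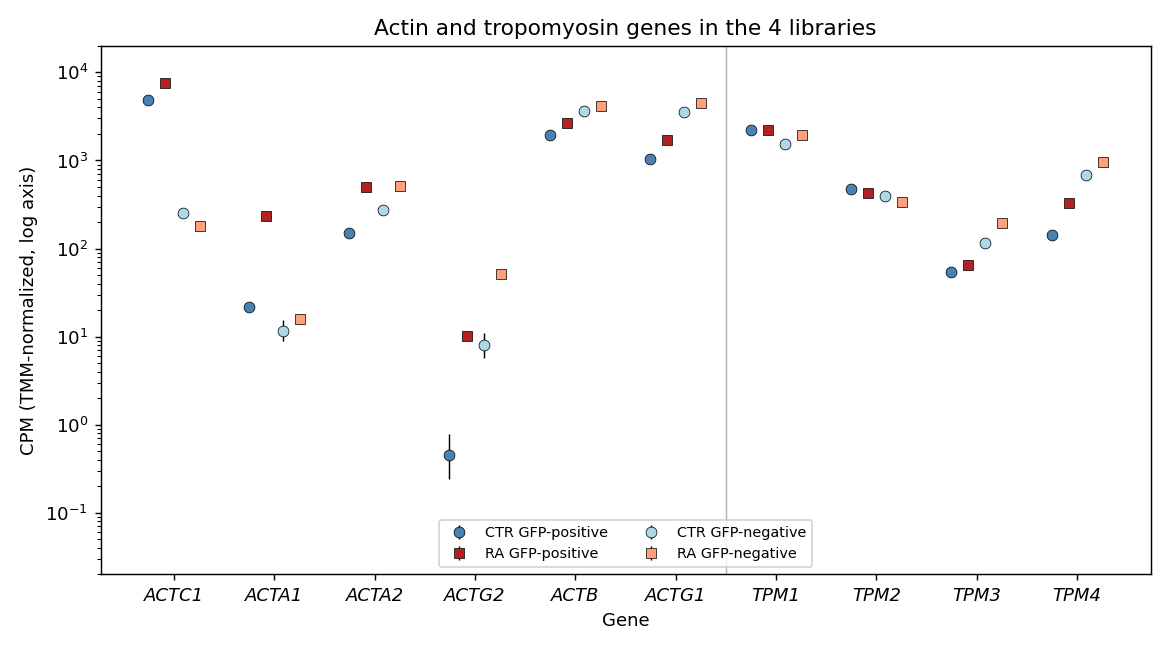
Level of each gene (CPM, log axis) in the 4 libraries, with circles for the control and squares for the RA culture, dark for GFP-positive and light for GFP-negative cells; bars are 95% Poisson intervals and are mostly smaller than the symbols. ACTC1 separated the fractions most widely, ACTA1 stood apart in RA GFP-positive cells at 235 CPM, and TPM1 and TPM2 changed little.

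ACTC1, at chr15:35082308-35087790 on the minus strand (GRCh37, as are the gene positions that follow), was the most abundant actin of the GFP-positive cells. It had 201591 reads in RA GFP-positive, 4598 in RA GFP-negative, 138673 in CTR GFP-positive and 1181 in CTR GFP-negative cells, or 7538, 179, 4839 and 252 CPM. Cardiac actin thus took 0.717% and 0.484% of all counted reads in the RA and CTR GFP-positive libraries. It was 19.2-fold (18.2 to 20.4) higher in GFP-positive than GFP-negative cells of the control culture and 42.1-fold (40.9 to 43.3) in the RA culture. With RA it was 1.56-fold (1.55 to 1.57) higher in the GFP-positive cells, below the 2-fold threshold, and 1.40-fold lower in the GFP-negative cells (ratio 0.712, 0.668 to 0.760).

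The opposite directions of ACTC1 in the 2 fractions were larger than counting error, but their difference was not tested. The level in the GFP-negative library was 5.20% of that in the GFP-positive library for the control culture and 2.38% for the RA culture. Over the 10 cardiomyocyte markers this share ranged from 3.38% to 47.8% in the control and from 1.61% to 47.4% in the RA culture, the highest in both being TNNI3 (cardiac troponin I), and it was lower in the RA culture for 8 of the 10. For TNNT2 (cardiac troponin T) the corresponding shares were 4.82% and 2.89%, for TTN (titin) 6.47% and 3.43% and for ACTN2 (sarcomeric alpha-actinin) 4.72% and 2.43%. PLN (phospholamban), in contrast, went from 4.53% to 5.36% and TNNI1 (slow skeletal troponin I) stayed at 4.80% and 4.81%. In the GFP-negative cells 5 of the 10 cardiomyocyte markers were at least 2-fold lower with RA, and 0 were in the GFP-positive cells, beside 3.58% and 1.86% of all genes.

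ACTA1 (chr1:229566112-229569851, minus strand) had the widest RA difference among the sarcomeric members. Skeletal actin had 6280 reads in RA GFP-positive, 403 in RA GFP-negative, 621 in CTR GFP-positive and 55 in CTR GFP-negative cells, or 235, 15.7, 21.7 and 11.7 CPM. The RA GFP-positive library stood alone, while the other 3 lay between 11.7 and 21.7 CPM. The gene was 10.8-fold (9.98 to 11.8) higher with RA in GFP-positive cells, and the ratio in GFP-negative cells was 1.34 (1.01 to 1.81). Between fractions it was 15.0-fold (13.5 to 16.6) higher in the GFP-positive cells of the RA culture, and the ratio in the control culture was 1.85 (1.40 to 2.48).

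The share of ACTA1 in the reads per kilobase of ACTA1 plus ACTC1 was 3.60% (3.52 to 3.69) in RA GFP-positive, 0.535% (0.494 to 0.578) in CTR GFP-positive, 9.52% (8.66 to 10.4) in RA GFP-negative and 5.29% (4.02 to 6.83) in CTR GFP-negative cells, with exact binomial intervals. Cardiac actin therefore made up the large majority of sarcomeric actin in every library, and the share of skeletal actin was lowest in the control GFP-positive cells. These shares take the union of annotated exons as gene length. With the length of the canonical transcript they were 2.81%, 0.413%, 7.51% and 4.14%, in the same order. Markers of skeletal muscle went both ways with RA in the GFP-positive cells. Of the 4 measured, 3 were at least 2-fold lower with RA and 1, MYOG (myogenin), was higher with 307 and 152 reads. Over all genes 1.86% were lower and 4.45% higher. CKM (muscle creatine kinase) stood at 158 and 338 CPM in RA and CTR GFP-positive cells, and at 1.40 and 2.13 CPM in the GFP-negative ones. It made up most of the summed level of the list in the GFP-positive cells. The summed level of the 9 genes of that list was 205 and 453 CPM in RA and CTR GFP-positive cells and 29.4 and 33.0 CPM in RA and CTR GFP-negative cells. Of the myogenic regulators MYF5 had 0 reads in both GFP-positive libraries and in the CTR GFP-negative one. MYOD1 and MYF6 had 0 reads in the CTR GFP-positive library, and 9 and 1 in the RA GFP-positive one.

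ACTA2 (chr10:90694831-90751096, minus strand) was higher with RA in both fractions. The gene had 13316 reads in RA GFP-positive, 13112 in RA GFP-negative, 4329 in CTR GFP-positive and 1277 in CTR GFP-negative cells, or 498, 511, 151 and 272 CPM. Smooth muscle alpha-actin was 3.30-fold (3.18 to 3.41) higher with RA in GFP-positive cells, past the threshold, and 1.88-fold (1.77 to 1.99) in GFP-negative cells, just below it. It was 1.80-fold lower in the GFP-positive than the GFP-negative cells of the control culture (ratio 0.556, 0.522 to 0.592), and in the RA culture the ratio was 0.974 (0.951 to 0.998).

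ACTG2 (chr2:74119441-74146992, plus strand), the enteric smooth muscle actin, was the actin with the fewest reads in 3 of the 4 libraries. It had 275 reads in RA GFP-positive, 1308 in RA GFP-negative, 13 in CTR GFP-positive and 38 in CTR GFP-negative cells, or 10.3, 51.0, 0.454 and 8.09 CPM. In each fraction the RA library was above the control library. The intervals of RA GFP-positive (9.10 to 11.6 CPM) and CTR GFP-negative cells (5.73 to 11.1 CPM) overlapped. In the GFP-positive comparison ACTG2 passed the minimum of 10 CPM only narrowly and was below it when scaled by library size alone. The ratio of RA to CTR was 22.7 (13.0 to 43.1) in GFP-positive and 6.30 (4.56 to 8.94) in GFP-negative cells, the former resting on 13 reads in the control. On the log2(CPM + 1) scale, which holds back such low genes, the differences were 2.96 and 2.52, and that in GFP-positive cells depended on the pseudocount, at 3.90 with 0.25 CPM and 1.49 with 5 CPM. Within the RA culture ACTG2 was 4.96-fold lower in the GFP-positive fraction (ratio 0.202, 0.176 to 0.230). In the control culture it was 17.8-fold lower (ratio 0.0561, 0.0274 to 0.108), but neither library reached 10 CPM, so it was not counted.

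**Figure D2:**
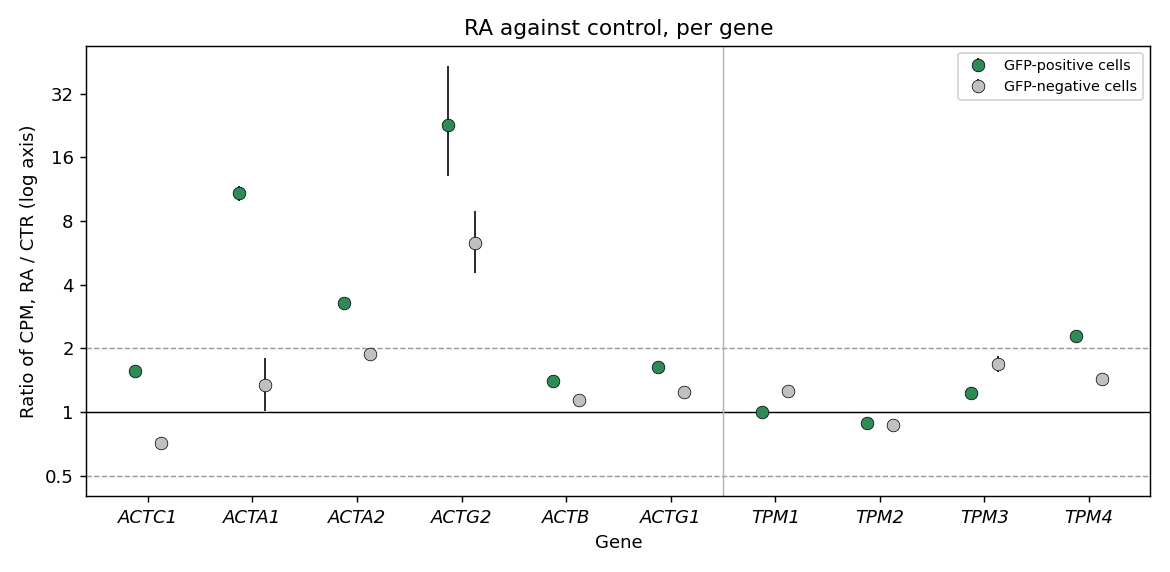
Ratio of CPM in RA to CTR (log axis) for each gene in GFP-positive (green) and GFP-negative (grey) cells; bars are 95% intervals of counting error, the solid line marks a ratio of 1 and the dashed lines 2 and 0.5. ACTA1, ACTA2, ACTG2 and TPM4 lay above 2 in GFP-positive cells, and ACTC1 lay on opposite sides of 1 in the 2 fractions.

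Smooth muscle and fibroblast markers moved with these genes in part. MYH11 (smooth muscle myosin heavy chain) stood at 115 CPM in RA GFP-positive, 28.4 in RA GFP-negative, 3.35 in CTR GFP-positive and 23.2 in CTR GFP-negative cells, a log2 difference of 4.73 with RA in the GFP-positive cells and 0.28 in the GFP-negative cells. TAGLN (transgelin) stood at 171, 744, 70.9 and 338 CPM in the same order. Of the 7 smooth muscle markers (MYH11, CNN1, TAGLN, SMTN, LMOD1, MYOCD and KCNMB1), 6 were measured in the GFP-positive cells. With RA 2 of them, MYH11 and TAGLN, were at least 2-fold higher and 0 lower, beside 4.45% and 1.86% of all genes. The ratios of the other measured ones were 1.09 for CNN1, 1.04 for SMTN, 1.03 for MYOCD and 0.812 for LMOD1. KCNMB1, which was below 10 CPM, had a ratio of 0.552. The summed level was 797 and 567 CPM in RA and CTR GFP-positive and 1015 and 564 CPM in RA and CTR GFP-negative cells. In the GFP-negative cells 1 of 5 measured was higher, beside 5.42% of all genes. None of the 7 was at 0 reads in any library.

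All 6 of the 6 measured fibroblast markers were at least 2-fold higher with RA in GFP-positive cells, and 4 of 7 in GFP-negative cells, beside 4.45% and 5.42% of all genes. The summed level of the 7 genes (COL1A1, COL3A1, DCN, LUM, POSTN, PDGFRA and TCF21) was 13316 and 3546 CPM in RA and CTR GFP-positive cells and 49072 and 25699 CPM in RA and CTR GFP-negative cells, with none at 0 reads. LUM (lumican) stood at 53.7 CPM in RA GFP-positive, 724 in RA GFP-negative, 10.6 in CTR GFP-positive and 262 in CTR GFP-negative cells. Like LUM, 6 of the 7 were at least 2-fold lower in the GFP-positive cells of each culture, beside 13.8% of all genes in the control and 13.0% in the RA culture. PDGFRA went the other way between fractions, at 295, 138.5, 132 and 87.3 CPM in the same order. TCF21 was lower with RA in the GFP-negative cells, with a ratio of 0.725. The part of these cells in the RA differences of ACTA1, ACTA2, ACTG2, ACTG1 and TPM4 was not tested.

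The list of gut and liver endoderm (AFP, ALB, APOA1, FOXA2, EPCAM and CDX2) summed to 73.4 and 24.6 CPM in RA and CTR GFP-positive cells. In RA and CTR GFP-negative cells the sum was 771 and 29.0 CPM. With RA 2 of 3 measured were higher in GFP-positive and 5 of 5 in GFP-negative cells, beside 4.45% and 5.42% of all genes. However, AFP and APOA1 in GFP-positive cells reached 10 CPM only with RA, as did AFP, ALB, APOA1 and CDX2 in GFP-negative cells. These could therefore not be counted as lower. FOXA2 had 0 reads in both control libraries and CDX2 in the CTR GFP-positive library. ACTG2, which is also expressed by the muscle of the gut, was highest in the RA GFP-negative library, and the part of such cells in its level was not tested. For the neural and eye list (PAX6, SOX2, STMN2, MAP2, TUBB3 and DCT) the sums were 80.5, 149, 23.3 and 307 CPM. These are for RA GFP-positive, RA GFP-negative, CTR GFP-positive and CTR GFP-negative cells, in that order. In the GFP-positive cells the 2 measured, STMN2 and MAP2, were higher with RA. Both reached 10 CPM only with RA, so neither could be counted as lower. Below that level the RA to CTR ratios were 1.17 for PAX6, 1.29 for SOX2, 1.44 for TUBB3 and 0.239 for DCT. In the GFP-negative cells 1 was higher and 3 lower of 5, beside 5.42% and 3.58% of all genes. There PAX6 and DCT reached 10 CPM only in the control.

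ACTB (chr7:5566040-5603533, minus strand) and ACTG1 (chr17:79476439-79490873, minus strand) made up most of the actin of the GFP-negative cells. ACTB had 71850 reads in RA GFP-positive, 105470 in RA GFP-negative, 55133 in CTR GFP-positive and 16938 in CTR GFP-negative cells, or 2687, 4110, 1924 and 3607 CPM. For ACTG1 the reads were 45292, 114251, 29747 and 16817, or 1694, 4452, 1038 and 3581 CPM in the same order. Both were lower in the GFP-positive cells of each culture, but to unequal extents. The beta-actin gene was 1.87-fold lower in the control (ratio 0.533, 0.524 to 0.543) and 1.53-fold lower in the RA culture (0.654, 0.647 to 0.660), within 2-fold, whereas the gamma-actin gene was 3.45-fold lower (0.290, 0.284 to 0.295) and 2.63-fold lower (0.380, 0.376 to 0.385).

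With RA, ACTB was 1.40-fold (1.38 to 1.41) higher in GFP-positive and 1.14-fold (1.12 to 1.16) higher in GFP-negative cells. The corresponding ratios of ACTG1 were 1.63 (1.61 to 1.66) and 1.24 (1.22 to 1.26), so none of the 4 values reached 2-fold. ACTB made up 59.3% (59.1 to 59.6) of the reads per kilobase of both genes in RA GFP-positive and 63.0% (62.7 to 63.4) in CTR GFP-positive cells, but 45.9% (45.7 to 46.1) and 48.1% (47.6 to 48.6) in RA and CTR GFP-negative cells. With the canonical transcripts the shares were 62.7%, 66.2%, 49.4% and 51.6%, so that the GFP-positive cells had the larger ACTB share under both lengths, while the order of the 2 genes in CTR GFP-negative cells changed with the length.

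The share of ACTC1 differed more between the fractions than between the cultures. This gene made up 68.4% and 69.9% of the reads per kilobase of the 6 actins in RA and CTR GFP-positive cells and 2.84% and 4.77% in RA and CTR GFP-negative cells. With canonical lengths the shares were 65.3%, 66.9%, 2.52% and 4.28%. The order in both GFP-positive libraries began with ACTC1, ACTB and ACTG1, and ACTG2 came last, under both lengths. ACTA1 and ACTA2 changed places in the RA GFP-positive library, where ACTA1 had 2.56% and ACTA2 2.29% by the union of exons, but 1.89% and 4.42% by canonical length. In RA GFP-negative cells the order was ACTG1, ACTB, ACTA2, ACTC1, ACTG2 and ACTA1 under both, and no neighbours there had overlapping intervals. In the CTR GFP-negative library the intervals of ACTA2 and ACTC1, and of ACTA1 and ACTG2, overlapped by canonical length.

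**Figure D3:**
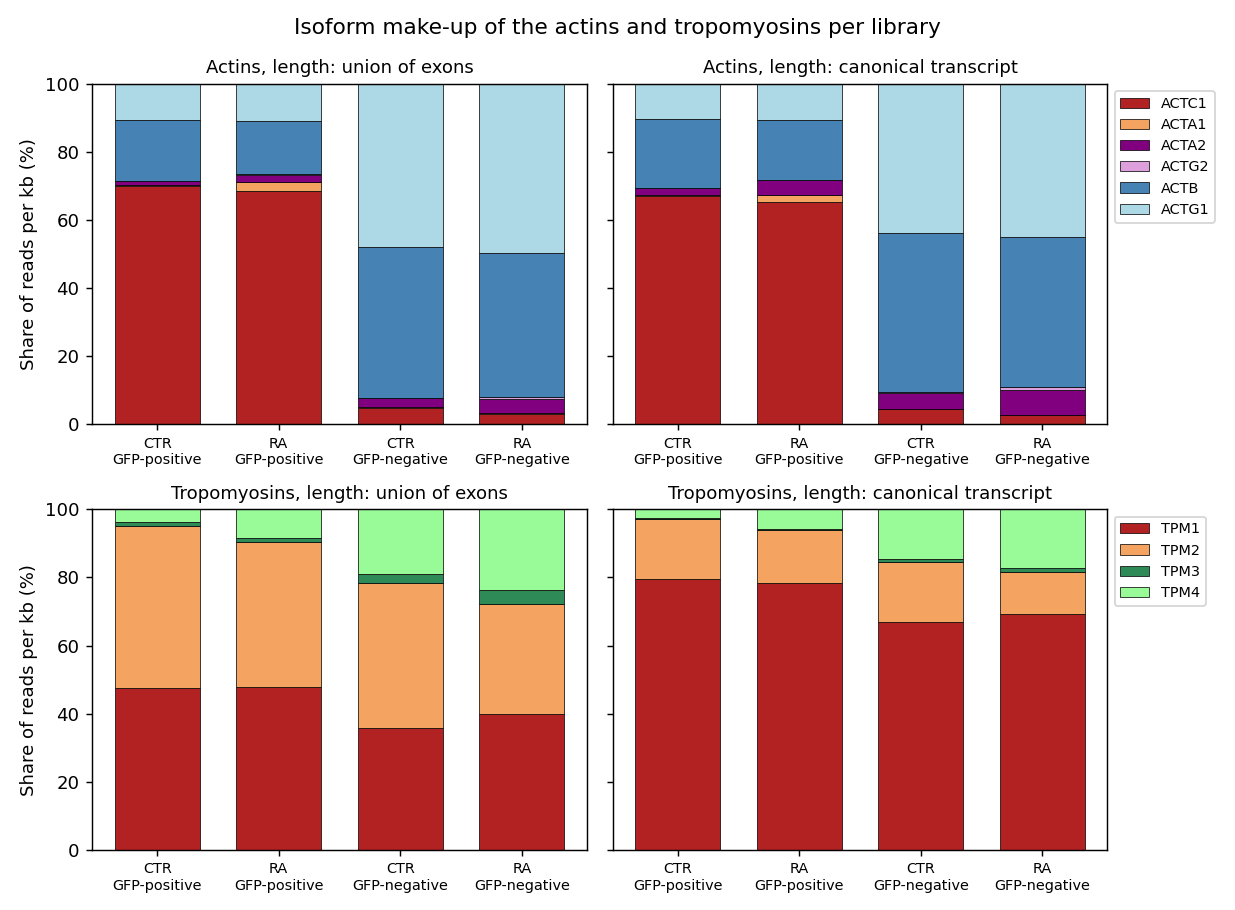
Share of each gene in the reads per kilobase (%, stacked to 100) of the 6 actins (top) and the 4 tropomyosins (bottom) in each library, with gene length taken as the union of exons (left) or as the canonical transcript (right). ACTC1 filled over 65% of the actin bar in GFP-positive cells under both lengths, whereas the share of TPM1 depended on the length used.

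The sum over reads of all 6 actins, not adjusted for length, was 12661, 9319, 7975 and 7732 CPM in RA GFP-positive, RA GFP-negative, CTR GFP-positive and CTR GFP-negative cells. In the control culture the 2 fractions therefore had similar totals, with a ratio of 1.03 (1.02 to 1.04), although the sarcomeric pair was 18.5-fold higher in GFP-positive cells and the cytoplasmic pair 2.43-fold lower. In the RA culture the total was 1.36-fold higher in the GFP-positive cells, the sarcomeric pair 39.9-fold higher and the cytoplasmic pair 1.95-fold lower. With RA the total was 1.59-fold higher in GFP-positive and 1.21-fold higher in GFP-negative cells.

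**Figure D4:**
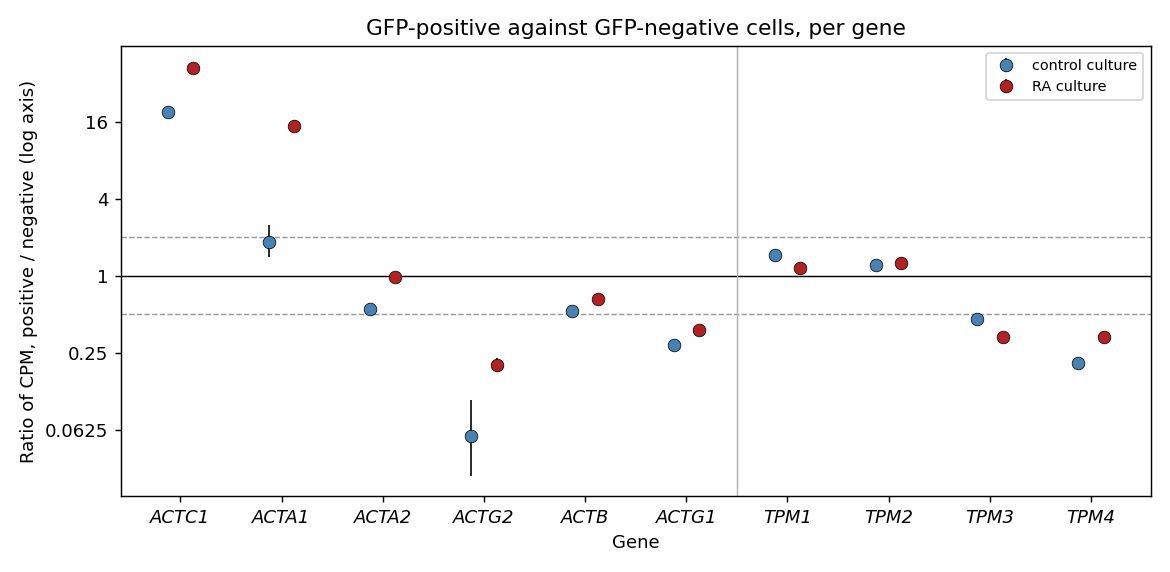
Ratio of CPM in GFP-positive to GFP-negative cells (log axis) for each gene in the control (blue) and the RA (red) culture; bars are 95% intervals of counting error, the solid line marks a ratio of 1 and the dashed lines 2 and 0.5. ACTC1 stood at 19.2 and 42.1, ACTG2, ACTG1, TPM3 and TPM4 below 0.5 in both cultures, and TPM1 and TPM2 between 1 and 2.

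TPM1 (chr15:63334819-63364114, plus strand), the main tropomyosin gene of the heart and also a source of cytoskeletal forms, was nearly level across the libraries. It had 59448 reads in RA GFP-positive, 49573 in RA GFP-negative, 63592 in CTR GFP-positive and 7177 in CTR GFP-negative cells, or 2223, 1932, 2219 and 1528 CPM. The RA to CTR ratio was 1.00 (0.991 to 1.01) in GFP-positive and 1.26 (1.23 to 1.30) in GFP-negative cells. The GFP-positive to GFP-negative ratio was 1.45 (1.42 to 1.49) in the control and 1.15 (1.14 to 1.16) in the RA culture, so that TPM1 did not separate the fractions as ACTC1 did.

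TPM2 (chr9:35681989-35690053, minus strand), which yields beta-tropomyosin, had 11448 reads in RA GFP-positive, 8750 in RA GFP-negative, 13767 in CTR GFP-positive and 1841 in CTR GFP-negative cells, or 428, 341, 480 and 392 CPM. It was the only member with a ratio of RA to CTR below 1 in both fractions, at 0.891 (0.869 to 0.913) in GFP-positive and 0.870 (0.827 to 0.915) in GFP-negative cells. Between fractions its ratio was 1.23 (1.17 to 1.29) in the control and 1.26 (1.22 to 1.29) in the RA culture.

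TPM3 and TPM4, which yield tropomyosins of the cytoskeleton, were both lower in the GFP-positive cells. TPM3 (chr1:154127784-154167124, minus strand) had 1760 reads in RA GFP-positive, 5052 in RA GFP-negative, 1532 in CTR GFP-positive and 548 in CTR GFP-negative cells, or 65.8, 197, 53.5 and 117 CPM. It was 2.18-fold lower in GFP-positive cells of the control culture (ratio 0.458, 0.415 to 0.506) and 2.99-fold lower in the RA culture (0.334, 0.316 to 0.353). Its RA to CTR ratios of 1.23 (1.15 to 1.32) and 1.69 (1.54 to 1.85) in GFP-positive and GFP-negative cells did not reach 2-fold.

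TPM4 (chr19:16177831-16213812, plus strand) had 8712 reads in RA GFP-positive, 24918 in RA GFP-negative, 4097 in CTR GFP-positive and 3195 in CTR GFP-negative cells, or 326, 971, 143 and 680 CPM. The control GFP-positive library was the lowest. The gene was 4.76-fold lower in GFP-positive cells of the control culture (ratio 0.210, 0.201 to 0.220) and 2.98-fold lower in the RA culture (0.335, 0.327 to 0.344). With RA it was 2.28-fold (2.20 to 2.37) higher in GFP-positive cells, the only tropomyosin past 2-fold, and the ratio in GFP-negative cells was 1.43 (1.38 to 1.48). As stated above, the fibroblast list was also higher in these RA libraries.

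Summed over the 4 genes, tropomyosin reads were 3043, 3441, 2896 and 2718 CPM in RA GFP-positive, RA GFP-negative, CTR GFP-positive and CTR GFP-negative cells, and the RA to CTR ratio was 1.05 (1.04 to 1.06) in GFP-positive and 1.27 (1.24 to 1.29) in GFP-negative cells. By the union of exons TPM1 made up 47.8%, 39.8%, 47.6% and 35.9% of the reads per kilobase in that order, and by canonical transcript 78.5%, 69.2%, 79.5% and 66.9%. The gap follows from the lengths, since the exons annotated for TPM1 cover 14700 bases and its canonical transcript 1217. TPM4 made up 8.32%, 23.8%, 3.64% and 19.0% by the union and 5.66%, 17.1%, 2.52% and 14.7% by canonical length, thus a larger share in the GFP-negative cells under both. TPM1 and TPM2 could not be ranked in CTR GFP-positive cells by the union, where their intervals overlapped, and TPM2 came first in CTR GFP-negative cells, whereas TPM1 led in all 4 libraries by canonical length.

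Reads that aligned to more than 1 place had been left out, and the actins are close in sequence. The coding sequences of ACTB and ACTG1 were 91.3% identical and those of ACTC1 and ACTA1 85.7%. Even so, none of the 75-base stretches of a member's canonical transcript, the length of a read, occurred in another member. Elsewhere in the genome, 5.29% of the stretches of ACTB, 13.0% of those of TPM4 and 0.973% of those of TPM3 occurred again, and 0 of those of the other 7 genes, and whether the mate of a read placed such a pair was not tested. The pseudogenes named for ACTB and for ACTG1 had 428 and 361 reads over the 4 libraries, 0.172% and 0.175% of the reads of the parent genes. TPM3P9 had 703 reads and TPM4P3 1019, and the pseudogenes of TPM3 and of TPM4 together had 11.4% and 2.52% of the parent's reads.

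Reads were counted without regard to strand, so those from an antisense gene over the same exons cannot be told apart from those of the member, or were left out where both genes matched. Exons on the opposite strand covered 35.9% of the exon bases of ACTA2, 22.7% of those of TPM1, 16.6% of those of ACTA1 and 15.7% of those of ACTC1. ACTA2-AS1 itself was counted with 1320, 544, 388 and 97 reads in RA GFP-positive, RA GFP-negative, CTR GFP-positive and CTR GFP-negative cells, and FAS, which also overlaps ACTA2, with 36, 292, 57 and 29. TPM1-AS had 445, 268, 625 and 75 reads. How many reads over the shared exons were left out was not tested.

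Genes that act on actin filaments were taken as 7 lists. In the GFP-positive cells, where 4.45% of all genes were at least 2-fold higher and 1.86% lower with RA, the counts 2-fold apart were 0 of 12 measured genes that cap or set the length of the thin filament, 0 of 17 that nucleate or elongate filaments, and 0 of 16 of the chaperones and enzymes that fold actin or process its end. Among genes of monomer binding and disassembly 1 of 9 was higher, TMSB4X (thymosin beta-4, which sequesters actin monomers), at 352 CPM in RA GFP-positive, 1328 in RA GFP-negative, 79.3 in CTR GFP-positive and 1210 in CTR GFP-negative cells. Its log2 difference was 2.14, and the median of the list was 0.27. The lowest of its 9 genes with at least 10 CPM, DSTN, stood at 0.06. Below that level SCIN, of the same list, had 5 reads in RA and 52 in CTR GFP-positive cells, and LMOD3, of the thin filament list, 26 and 136. LCP1, a cross-linker also below that level, went the other way, with 236 and 71 reads. Among cross-linkers and anchors 1 of 11 was lower, ACTN3 (the alpha-actinin of fast skeletal fibres), with a log2 difference of -1.63. Of 9 genes of smooth muscle and tropomyosin-associated proteins, 3 were higher and 0 lower, with MYH11 at 4.73 and a median of 0.52. FHL2, a partner of SRF, was the 1 of 8 in the SRF list that was lower, with a log2 difference of -1.42, at 211 CPM in RA and 564 CPM in CTR GFP-positive cells, whereas MEF2C was the highest at 0.55 and SRF itself stood at 176 and 163 CPM.

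Among members with at least 10 CPM, the highest and lowest of the first 3 lists in these cells were CAP1 at 0.50 and NEBL at -0.50, ARPC4 at 0.53 and FHOD3 at -0.79, and PFDN4 at 0.20 and CCT8 at -0.19, in log2 difference. In the GFP-negative cells, where 5.42% of all genes were at least 2-fold higher and 3.58% lower with RA, 2 of 11 thin filament genes were lower with RA, with NEB (nebulin) at -1.59. There, 1 of 18 nucleators was higher (PFN2, a profilin, at 1.09), 0 of 11 genes of monomer binding passed 2-fold, 1 of 13 cross-linkers was higher and 2 lower (LCP1 at 2.74 and ACTN2 at -1.29 being the extremes), 1 of 9 smooth muscle genes was higher (TAGLN at 1.14), 0 of 7 SRF genes and 1 of 16 folding genes (NAA80, the actin acetyltransferase, at 1.32, on 23 reads in the control).

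Between the fractions 12.7% of all genes were higher in GFP-positive cells and 13.8% lower in the control culture, and 10.5% and 13.0% in the RA culture, and several of the list counts that follow lie near these shares. Of the SRF list 5 of 8 were higher in GFP-positive cells in each culture and 0 lower, with a median log2 difference of 1.44 in the control culture. FHL2 was the highest in the control culture at 4.81, and MYOCD (myocardin, the SRF partner of heart and smooth muscle) in the RA culture at 4.30. Of the thin filament list 6 were higher and 4 lower of 13 in the control culture, and 5 and 2 of 12 in the RA culture, led by LMOD2 (leiomodin of striated muscle) at 4.47 and XIRP1 at 5.34. The value of LMOD2 rested on 3 reads in the CTR GFP-negative library, and XIRP1 was close to it in the control culture at 4.39. Nucleators were mostly lower or within 2-fold, with 1 higher and 4 lower of 18 in the control and 1 and 5 of 18 in the RA culture. FHOD3 (the formin of cardiac sarcomeres) was the 1 that was higher, at 2.84 and 2.66, and DIAPH3 the lowest, at -3.18 and -2.92.

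In the monomer list 1 was higher and 4 lower in each culture, of 11 in the control and 10 in the RA culture, with CFL2 (muscle cofilin) higher at 1.44 and 1.24 and TMSB4X the lowest at -3.92 and -1.91. Cross-linkers gave 2 higher and 4 lower in each culture, of 12 and 13, from ACTN2 at 4.35 and 5.23 to PLS3 at -2.12 and -1.97. In the smooth muscle and tropomyosin-associated list 2 were higher and 6 lower of 9 in the control and 3 and 3 of 9 in the RA culture, with DES (desmin) at 1.78 and 2.51 as the highest. Of the 16 folding genes 1 was higher in the control culture (NAA80 at 2.08) and 0 in the RA culture, and 0 were lower in either. The cytoplasmic actins and TPM4 thus lay on the same side as TMSB4X, PLS3 and DIAPH3, and ACTC1 on that of FHL2, LMOD2 and FHOD3.

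For ACTC1, ACTA2, ACTB and TPM1 genes with the most similar profile were taken among 12407 genes, by the Euclidean distance of log2(CPM + 1) values centred on the mean of the 4 libraries. For ACTC1 they were SPHKAP at a distance of 0.145, CSRP3 (muscle LIM protein) at 0.551 and KCNIP2 (a subunit of cardiac potassium channels) at 0.602. SPHKAP stood at 208, 4.60, 133 and 5.96 CPM in RA GFP-positive, RA GFP-negative, CTR GFP-positive and CTR GFP-negative cells. For ACTA2 the genes were TENM1 at 0.116, ATF3 at 0.234 and HTRA3 at 0.239. EFNB1 at 0.0546, LBR at 0.0794 and FTH1P8 at 0.0987 came closest to ACTB, and RREB1 at 0.0249 and SMCR8 at 0.0329 were close to TPM1. Each of these profiles rests on 4 values.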

How the data were processed

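RNA of sorted NKX2.5:GFP-positive and -negative hESC derivatives was sequenced as strand-specific paired-end libraries of 75 bases per read. After quality trimming by SICKLE, the authors mapped the pairs to a custom hg19 genome with GSNAP and discarded reads with more than 1 position. SAMtools 0.1.18 and HTSeq-count 0.6.1p1 (not stranded, intersection-nonempty) then gave 1 value for each Ensembl gene and library. The deposited values are these raw counts. The Ensembl release is not given in the sources used here. Of 60234 genes, 43521 were matched to a symbol, and positions and lengths come from GENCODE lifted to GRCh37.

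CPM were computed from the counts and the TMM factors of all libraries (edgeR 4.0.16, R 4.3.3). Ratios carry Clopper-Pearson and levels exact Poisson intervals at the 95% level (scipy 1.17.1). Amplified reads are not independent molecules, so intervals and the floor of 3 reads, 0.105 to 0.639 CPM, cover counting error only. Log2 differences used a pseudocount of 1 CPM, and genes were counted at 2-fold or more if they reached 10 CPM in 1 of the libraries compared. The ratio and its interval were tested on simulated data. The members and lists were chosen with earlier results of these data known. The text names all members, the highest and lowest gene of each pathway list, and the 3 nearest profiles of 4 members, except 2 genes that are not reported here; marker genes beside them were chosen after their values were seen.

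The alternatives were library size alone, DESeq2 1.42.0 size factors, upper quartile, library size without mitochondrial genes, thinning to 4371101 reads, other pseudocounts, thresholds and filters, and other gene lengths.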

Additional observations from a re-analysis of the deposited data

Results flagged for a closer look

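The direction of ACTC1 with RA was not the same in the 2 fractions. The log2 difference was 0.64 in the GFP-positive and -0.49 in the GFP-negative cells, each with an interval of the ratio that left out 1. With 1 library per condition, no test of this difference was made. The ACTC1 level in the GFP-negative library was 5.20% of that in the GFP-positive library of the control culture and 2.38% of that of the RA culture. No other member had intervals on opposite sides of 1 in the RA comparisons of the 2 fractions or in the fraction comparisons of the 2 cultures.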

How the results depend on the processing

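With 1 library per group no paired analysis was possible because the groups hold no replicates, and no library could be left out. Of the 40 log2 differences of the members, 38 kept their direction under all 7 alternatives of scaling, depth and pseudocount, and the exceptions were TPM1 with RA in GFP-positive cells (0.00, range -0.07 to 0.03) and ACTA2 between the fractions of the RA culture (-0.04, range -0.08 to 0.07). The count of members with RA in GFP-positive cells was 3 by library size alone and after thinning, since ACTG2, at 10.3 CPM, then had under 10 CPM, and 6 at 1.5-fold. At 1.5-fold the count was 3 in GFP-negative cells and 7 between the fractions of each culture. ACTB passed 2-fold between the fractions of the control culture by library size alone, and ACTG2 was counted there with a minimum of 1 CPM or none, giving 5 members each time.

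The isoform shares depended on the gene length, and the canonical transcript was added after seeing the data. In the order RA GFP-positive, RA GFP-negative, CTR GFP-positive and CTR GFP-negative, the ACTC1 share of the actins was 71.9%, 3.36%, 73.4% and 5.68% by the longest coding transcript, 65.3%, 2.52%, 66.9% and 4.28% by the canonical one, and 59.5%, 1.92%, 60.7% and 3.25% of plain reads. For TPM1 among the tropomyosins these were 53.2%, 41.5%, 54.6% and 38.9%, then 78.5%, 69.2%, 79.5% and 66.9%, and 73.1%, 56.1%, 76.6% and 56.2%. The ACTA1 share of ACTA1 plus ACTC1 was 1.89%, 5.14%, 0.276% and 2.80% by the longest coding transcript, 2.81%, 7.51%, 0.413% and 4.14% by the canonical one, and 3.02%, 8.06%, 0.446% and 4.45% of plain reads. Under each length the ACTC1 share was higher in both GFP-positive than in both GFP-negative libraries, and the ACTA1 share higher with RA in both fractions. Depth limited mainly ACTG2 and ACTA1 in the CTR GFP-negative library, with 38 and 55 reads, and ACTG2 in the CTR GFP-positive library, with 13.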
